A study of Homo sapiens with 4 samples.

Results

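The kinase ZAK, the P38 mitogen-activated protein kinases and the factors around them were examined at the RNA level in K562 cells before and after 24 h of hemin. The set holds 10 genes, chosen by name, of 17687 genes named on the array. They are MAP3K20, which encodes ZAKα and ZAKβ; MAP2K3 and MAP2K6, the upstream kinases of P38; MAPK11, MAPK12 and MAPK13, of the P38 family; MAPKAPK2 and MAPKAPK3, kinases downstream of P38; and GADD45A and GADD45B, stress-induced proteins that activate the cascade from above. Each gene was reported by 1 probe set, a group of short probes read as 1 value. MAPK14, which encodes P38α, was not matched to a probe set and is not analysed here.

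K562 is a human chronic myeloid leukemia cell line that hemin, an oxidized form of heme, can drive toward the erythroid lineage. RNA was hybridized to Human Clariom S arrays from cells at 0 h, with no hemin, and from cells kept for 24 h in 50 µM hemin. The labels give 2 biological replicates, 1 array each, per time point. A 24 h culture without hemin was not analysed here, so that hemin and time in culture cannot be told apart. Whether the replicates came from separate cultures is not stated, and the p-values then measure only how far these arrays spread. The cells are bulk samples of 1 line, in which a change in the number of cells that make an RNA cannot be told apart from a change in RNA per cell.

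In this cascade, a MAP3K phosphorylates a MAP2K, which phosphorylates a MAPK, which in turn phosphorylates further kinases and transcription factors. ZAKα binds ribosomes and is activated when they stall or collide, the ribotoxic stress response, and it signals to P38 and to JNK, the other stress-activated MAPK. The GADD45 proteins bind and activate MAP3K4, and MAPKAPK2 and MAPKAPK3 act on proteins that control the stability and translation of short-lived mRNAs. All these steps run through phosphorylation, which RNA arrays do not measure.

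Promoter sequences of 8 of the 10 genes were matched by gene symbol in RefSeq (GRCh38.p14); GADD45A and MAPKAPK2 were not among them. Each window runs from 250 bases before to 50 bases after an annotated start. The windows of ZAK, of MAPK11 and MAPK12, and of MAPKAPK3 are shown. MAPK11 and MAPK12 are immediate neighbours on chromosome 22 with 0 annotated genes between them, of which only MAPK12 had values above background, and MAPKAPK3 had the lowest fitted change of the set. Capitals mark matches to an E-box (CACGTG) or to the core of the antioxidant response element (TGACNNNGC).
MAP3K20, chr2:173075596-173075895, plus strand: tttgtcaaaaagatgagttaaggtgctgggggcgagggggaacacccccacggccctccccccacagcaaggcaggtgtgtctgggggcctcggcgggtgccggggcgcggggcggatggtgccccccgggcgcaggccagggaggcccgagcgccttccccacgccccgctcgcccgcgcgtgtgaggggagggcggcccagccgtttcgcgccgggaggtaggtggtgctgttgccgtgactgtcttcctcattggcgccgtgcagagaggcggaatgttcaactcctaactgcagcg
MAPK11, chr22:50270331-50270630, minus strand: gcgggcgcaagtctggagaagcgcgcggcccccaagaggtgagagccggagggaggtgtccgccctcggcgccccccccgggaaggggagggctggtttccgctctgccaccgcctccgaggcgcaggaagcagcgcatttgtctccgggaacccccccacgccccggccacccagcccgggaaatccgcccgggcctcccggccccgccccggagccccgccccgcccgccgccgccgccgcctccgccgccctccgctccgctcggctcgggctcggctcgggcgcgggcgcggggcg
MAPK12, chr22:50261634-50261933, minus strand: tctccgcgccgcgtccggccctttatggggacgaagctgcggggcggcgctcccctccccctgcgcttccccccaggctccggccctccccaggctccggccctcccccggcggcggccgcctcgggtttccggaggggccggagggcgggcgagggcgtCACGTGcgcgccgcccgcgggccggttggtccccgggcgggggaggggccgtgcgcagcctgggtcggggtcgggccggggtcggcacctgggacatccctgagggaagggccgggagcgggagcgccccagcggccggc
MAPKAPK3, first start, chr3:50611627-50611926, plus strand: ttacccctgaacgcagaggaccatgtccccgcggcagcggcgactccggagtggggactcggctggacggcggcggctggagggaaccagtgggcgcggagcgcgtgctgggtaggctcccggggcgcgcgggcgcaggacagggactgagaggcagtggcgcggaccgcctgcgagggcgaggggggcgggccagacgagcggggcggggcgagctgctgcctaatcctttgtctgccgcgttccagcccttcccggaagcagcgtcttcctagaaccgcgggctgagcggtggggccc
MAPKAPK3, second start, chr3:50616901-50617200, plus strand: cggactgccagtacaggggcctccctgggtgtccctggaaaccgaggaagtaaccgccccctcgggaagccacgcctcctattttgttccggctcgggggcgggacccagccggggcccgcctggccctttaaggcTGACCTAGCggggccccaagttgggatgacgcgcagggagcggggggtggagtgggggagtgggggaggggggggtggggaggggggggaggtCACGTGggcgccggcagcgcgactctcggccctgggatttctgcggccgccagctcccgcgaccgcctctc

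The shown windows are rich in G and C, from 70.3% in MAP3K20 to 81.7% in MAPK12. MAPK12 had an E-box and MAPK11 had no match to a searched motif. The second start of MAPKAPK3 had an E-box and a match to the antioxidant core (TGACCTAGC), and its first start had none. Both strands of all 11 windows of the set were searched for these motifs and for the AP-1 site (TGANTCA) and the cyclic AMP response element (TGACGTCA), the classical sites of JUN, FOS, ATF and CREB factors. Beyond the matches above, GADD45B had an E-box and 1 of the windows of MAP2K3 an AP-1 site (TGAGTCA), which makes 5 matches in all. Over all 35116 promoter windows, 7.26% held an E-box, 7.71% an AP-1 site, 1.85% a cyclic AMP response element and 13.3% the antioxidant core. The motifs were chosen with the expression values known, and a match describes letters, not a bound site.

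Of the 20893 transcript probe sets tested, 10375 were above the dim line in all 4 arrays. This line, a log2 value of 5.70, was set from 348 olfactory receptor genes, as the 95th percentile of their means, and values below it are not taken as a measured level. A stricter floor, 7.56, is the same percentile of 612 negative control probe sets. Across probe sets, which do not count as replicates, r was 0.982 between the arrays at 0 h, 0.988 between those at 24 h and 0.972 to 0.979 for arrays of different time points. All 5 measured erythroid markers lay above the stricter floor in every array, and of 16 markers of other cell types 9 lay below the dim line in every array and 2, EPCAM and COL1A2, above the stricter floor in every array. EPCAM had means of 13.53 at 0 h and 12.33 at 24 h, and its part in the results was not tested.

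Of the 10 genes of the ZAK and P38 set, 7 were above the dim line in all 4 arrays and 3, MAP2K6, MAPK11 and MAPK13, were below it in all 4. Above the stricter floor in every array were 5: MAP3K20, MAPK12, MAPKAPK2, MAPKAPK3 and GADD45A. MAP2K3 and GADD45B lay between the line and the floor. Levels of different probe sets cannot be compared, so the genes are set against background only.

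**Figure D1:**
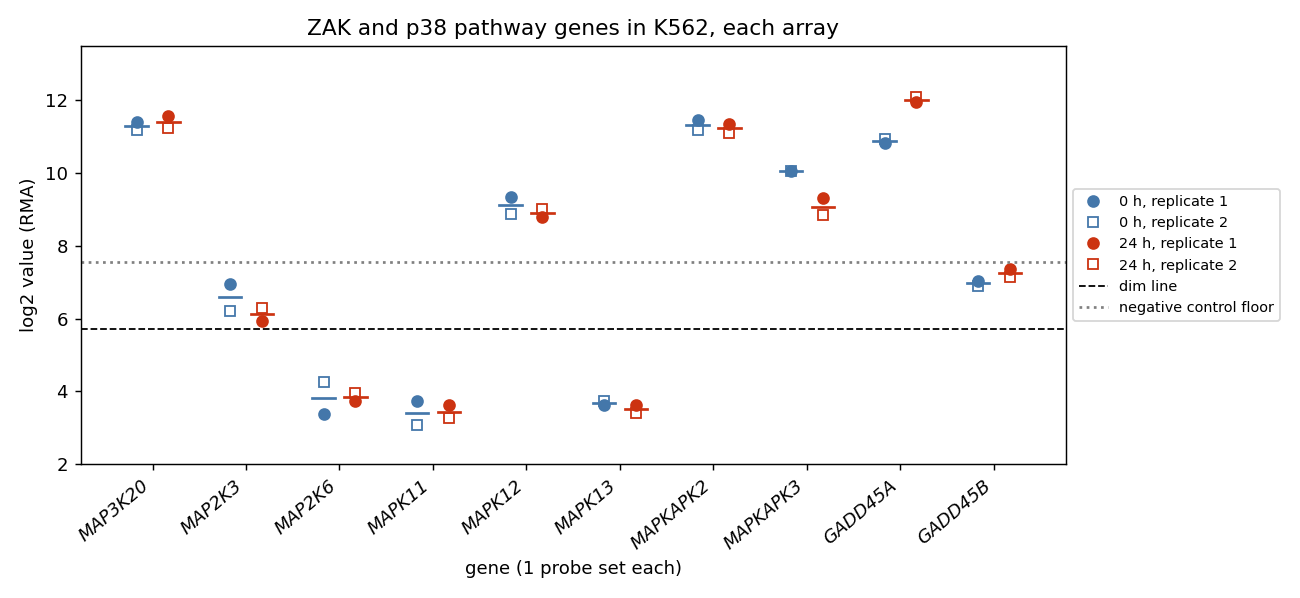
Log2 values (vertical axis) of the 10 genes in each of the 4 arrays, at 0 h (blue) and 24 h (red); horizontal bars are means of 2 arrays, the dashed line is the dim line of 5.70 and the dotted line the negative control floor of 7.56. MAP2K6, MAPK11 and MAPK13 lie below both lines, and GADD45A and MAPKAPK3 show the widest separation between time points.

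To learn whether the RNA of the cascade differed after hemin, the time points were compared with limma over all 20893 probe sets, with Benjamini-Hochberg adjustment, and an adjusted p under 0.05 counted as a call. None of the 10 genes was called by limma, against 0.943% of all probe sets. At an unadjusted p under 0.05 there were 2 of 10, GADD45A higher and MAPKAPK3 lower, against 12.9% of all probe sets. The methods' ANOVA called 0 after adjustment and 1, GADD45A, at its unadjusted threshold. The arrays of the time points did not overlap for 3 of the 10 genes, GADD45A, GADD45B and MAPKAPK3, against 43.6% of all probe sets. The median log2 change of the 10 genes was -0.03, beside -0.06 over all probe sets, and 5 had a fitted change above 0 and 5 below.

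MAP3K20, the gene of ZAK itself, was measured at log2 values of 11.41 and 11.19 in the arrays at 0 h and at 11.57 and 11.25 in those at 24 h. The time points overlapped, and replicate 1 was the higher array at both. This gave a log2 change of 0.11 (adjusted p = 0.92 from limma, standard error 0.32). Its 95% interval, -0.60 to 0.83, spans a fold of 0.659 to 1.78 with 2 arrays per time point. The probe set was read as 1 value for the gene, and ZAKα and ZAKβ, its splice forms, were not told apart.

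Of the MAP2K genes, MAP2K3, which encodes MKK3, had log2 values of 6.96 and 6.22 at 0 h and of 5.95 and 6.30 at 24 h. Replicate 1 at 0 h stood above the other 3 arrays, which lay within a narrower range, and the time points overlapped. Its log2 change was -0.46 (standard error 0.36, 95% interval -1.27 to 0.34, adjusted p = 0.64 from limma), and without that array it was -0.09. MAP2K6, which encodes MKK6, was below the dim line, at 3.37 and 4.27 at 0 h and at 3.73 and 3.96 at 24 h.

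Of the P38 genes, MAPK12, which encodes P38γ, had a measured level, while MAPK11 (P38β) and MAPK13 (P38δ) did not. MAPK12 stood at log2 values of 9.35 and 8.88 at 0 h and at 8.80 and 9.0 at 24 h. The arrays of the time points overlapped, with replicate 1 at 0 h the highest of the 4. MAPK12 thus had a log2 change of -0.21 (standard error 0.33, 95% interval -0.95 to 0.52, adjusted p = 0.84 from limma). MAPK11 ran from 3.07 to 3.74 over the 4 arrays and MAPK13 from 3.40 to 3.72, all below the dim line. Neither gene was above the line in any array at either time.

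**Figure D2:**
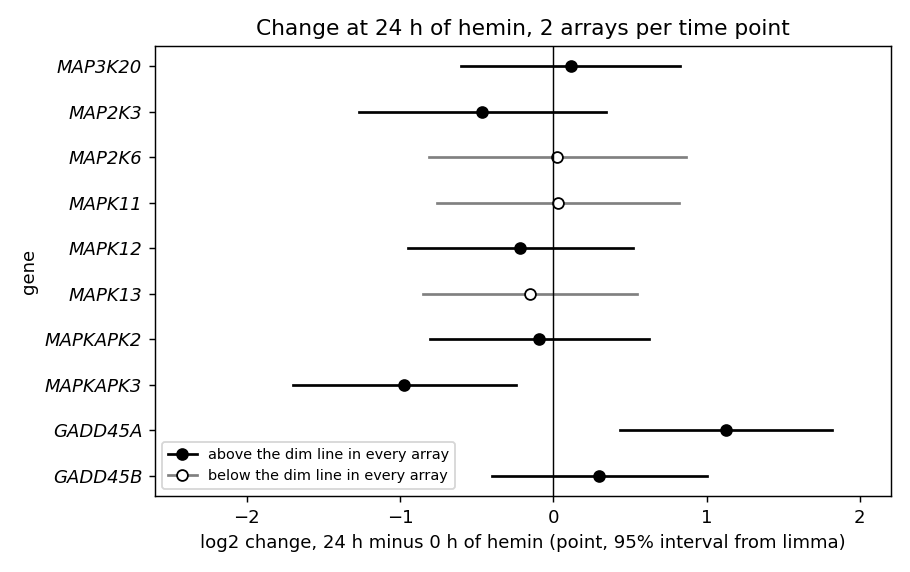
Log2 change at 24 h minus 0 h of hemin (horizontal axis; points) with 95% intervals from limma (lines) for the 10 genes; open points are genes below the dim line in every array. The intervals of GADD45A (0.44 to 1.82) and MAPKAPK3 (-1.70 to -0.25) lie to one side of 0 before adjustment, and the other 8 include 0.

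The MAPKAP kinases, also called MK2 and MK3, are close paralogs with shared substrates. MAPKAPK2 had log2 values of 11.47 and 11.18 at 0 h and of 11.35 and 11.11 at 24 h. Its time points overlapped, at a log2 change of -0.09 (standard error 0.32, 95% interval -0.81 to 0.62, adjusted p = 0.93 from limma). MAPKAPK3 had values of 10.05 and 10.06 at 0 h and of 9.31 and 8.85 at 24 h. Both arrays at 24 h lay below both at 0 h, and the arrays at 0 h were nearly equal. MAPKAPK3 had a log2 change of -0.97 (standard error 0.32), a level at 0 h 1.96-fold that at 24 h (95% interval 1.19 to 3.25), with an unadjusted p of 0.014 and an adjusted p of 0.24 from limma. By p it ranked 1243 of 20893 probe sets. The difference between the paralogs was not tested.

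The GADD45 proteins link DNA damage and growth arrest to the cascade. GADD45A had the largest difference of the 10 genes, with log2 values of 10.83 and 10.95 at 0 h and of 11.95 and 12.08 at 24 h. Both arrays at 24 h stood above both at 0 h, and within each time point the arrays lay close together. This amounted to a log2 change of 1.13 (standard error 0.31), or 2.19-fold (95% interval 1.35 to 3.53), with an unadjusted p of 0.0048 and an adjusted p of 0.15 from limma, which ranked 691 of 20893. With limma's trend and robust options GADD45A was called higher (adjusted p = 0.049), as it was after a filter at the negative control floor, with fewer probe sets tested (adjusted p = 0.046), and over all settings other than leaving out an array its adjusted p ran from 0.046 to 0.43. GADD45B, between the dim line and the stricter floor, had values of 7.04 and 6.89 at 0 h and of 7.37 and 7.16 at 24 h. Its arrays did not overlap, but the log2 change was 0.30 (standard error 0.31, 95% interval -0.40 to 1.00, adjusted p = 0.74 from limma).

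Leaving out each array in turn gave log2 changes of 1.06 to 1.20 for GADD45A and of -1.21 to -0.74 for MAPKAPK3, all of 1 sign and none called. MAP3K20 ranged from -0.05 to 0.27, MAPK12 from -0.45 to 0.02 and MAPKAPK2 from -0.24 to 0.05, so that the sign of each depended on single arrays. GADD45B kept a value above 0, from 0.19 to 0.41.

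**Figure D3:**
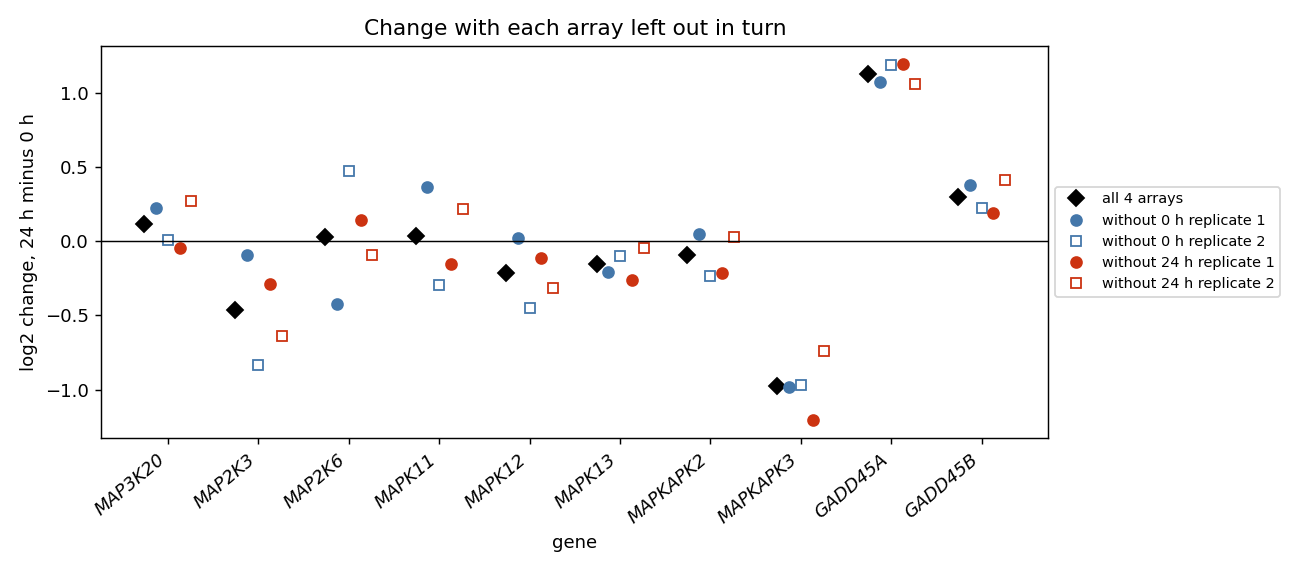
Log2 change at 24 h minus 0 h (vertical axis) of the 10 genes with all 4 arrays (black diamonds) and with 1 array left out (coloured symbols). GADD45A stays between 1.06 and 1.20 and MAPKAPK3 between -1.21 and -0.74, while MAP3K20, MAP2K6, MAPK11, MAPK12 and MAPKAPK2 fall on both sides of 0.

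The rest of the pathway was read from a list of 63 other genes in 7 roles, of which 52 had a named probe set. None of the 52 was called by limma. Before adjustment, 8 had higher and 2 had lower values at a p under 0.05, against 6.28% and 6.62% of all probe sets. The arrays did not overlap for 27 of the 52, against 43.6% of all probe sets. The median log2 change of the 52 was 0.11, beside -0.06 over all probe sets. Named below are the gene with the largest difference in each role and some others, said to be chosen after their values were seen.

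Upstream, among 15 measured MAP3K genes and adaptors, the largest difference was in MAP3K5, which encodes the oxidant-sensitive kinase ASK1. It had log2 values of 7.28 and 7.35 at 0 h and of 6.04 and 6.44 at 24 h, a difference of -1.08 (adjusted p = 0.18 from limma, standard error 0.32). Both arrays at 24 h lay below both at 0 h, and all 4 lay below the negative control floor. MAP3K4, the partner of the GADD45 proteins, chosen after its values were seen, had a log2 change of -0.16 (95% interval -0.94 to 0.61). MAP3K7, the kinase TAK1, and its adaptor TAB2, both chosen after their values were seen, had log2 changes of 0.66 and 0.68 (adjusted p of 0.42 and 0.39 from limma). TAB3 and TAOK3 of the same role, chosen likewise, had log2 changes of -0.06 and 0.70 (adjusted p of 0.96 and 0.41 from limma). GADD45G, the other gene of the GADD45 family (also chosen once its values were known), stayed below the dim line in every array. Of the genes that sense stalled ribosomes or act at collisions, 3 of 6 had a named probe set, and the log2 changes of these ran from -0.14 to 0.19. The last value was that of ZNF598, a ubiquitin ligase of collided ribosomes, which was below the dim line in every array.

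In the JNK branch, a role of 6 genes that counts MAPK14 among them, 3 had a named probe set. MAPK10 had the largest difference, -0.68 on the log2 scale (adjusted p = 0.42 from limma), but was below the dim line in every array. MAPK8 and MAPK9, the JNK kinases measured above it and chosen after their values were seen, had log2 changes of -0.17 and -0.22.

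Among 6 other kinases downstream of P38, MKNK2, which encodes the eIF4E kinase MNK2, had log2 values of 8.37 and 7.48 at 0 h and of 9.87 and 8.87 at 24 h. Both arrays at 24 h stood above both at 0 h, with replicate 1 the higher at each time. With all arrays its log2 change was 1.44 (adjusted p = 0.18 from limma, standard error 0.43). Without replicate 1 at 24 h the change was 0.95 and without replicate 2 it was 1.94. With all arrays kept MKNK2 was called in 1 of 9 other settings, which took the replicate number as a block. The other 5 kinases ran from -0.53 to 0.11.

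Transcription factors phosphorylated by P38 held the widest differences of the list. DDIT3, which encodes the stress factor CHOP, went from log2 values of 7.73 and 6.92 to 10.57 and 8.87. Replicate 1 at 24 h stood well above replicate 2, and both stood above the arrays at 0 h. DDIT3 thus differed by 2.40 on the log2 scale (adjusted p = 0.077 from limma, standard error 0.53). The difference was 1.55 without replicate 1 at 24 h and 3.25 without replicate 2, fits in which the spread at 24 h cannot be estimated. With all arrays kept DDIT3 was called in 3 of 9 other settings. Of these, 1 took the replicate number as a block, a pairing that the labels do not state. The others were limma's trend and robust options (adjusted p = 0.025) and a filter at the negative control floor (adjusted p = 0.037). The mean of DDIT3 at 0 h, 7.33, lay below that floor, so it passed the filter through its arrays at 24 h. The MEF2 genes, which encode factors of muscle, neurons and blood lineages and which were chosen after their values were seen, differed in sign. MEF2C had values of 12.32 and 11.86 at 0 h and of 10.05 and 10.69 at 24 h, a difference of -1.72 (adjusted p = 0.063 from limma, standard error 0.35). MEF2D had values of 6.79 and 7.01 at 0 h and of 8.42 and 8.65 at 24 h, a difference of 1.64 (adjusted p = 0.0505 from limma, standard error 0.31). Neither pair of time points overlapped, and both genes stood just outside the threshold. MEF2D was called in 7 and MEF2C in 6 of 9 other settings. Both counts include a fit with the replicate number as a block, though the labels do not say that the numbers pair the arrays. MEF2D passed the filter at the negative control floor only through its arrays at 24 h, since both at 0 h lay below it. With each array left out in turn, the log2 change ran from -2.04 to -1.4 for MEF2C and from 1.52 to 1.75 for MEF2D. ATF2, the classical P38 substrate, chosen after its values were seen, had a log2 change of 0.13 (95% interval -0.57 to 0.83).

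Among 8 measured substrates of MK2 and MK3 and RNA-binding proteins, 3 had higher and 0 lower values at a p under 0.05 before adjustment. Over all probe sets the shares were 6.28% higher and 6.62% lower, and none of the 8 was called by limma. ZFP36L1, an mRNA decay factor, had log2 values of 8.39 and 8.81 at 0 h and of 9.91 and 9.75 at 24 h, a difference of 1.23 (adjusted p = 0.13 from limma, standard error 0.32). It was called in 1 of 9 other settings, the filter at the negative control floor (adjusted p = 0.044). ZFP36, tristetraprolin, had a log2 change of 1.12 and HSPB1, the small heat shock protein HSP27, of 0.78, with adjusted p of 0.25 and 0.38 from limma. Both arrays of ZFP36 at 0 h lay below the negative control floor. Its mean over all arrays, 7.37, kept it out of the filter at that floor. ZFP36L2 of the same role had a log2 change of -0.02 (adjusted p = 0.99 from limma). Among the 8, 5 had a fitted change above 0 and 3 below. ZFP36, HSPB1 and ZFP36L2 were chosen after their values were seen.

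Of 7 phosphatases that inactivate P38, 2 had higher and 0 lower values at a p under 0.05 before adjustment, against 6.28% and 6.62% of all probe sets. The 2 were DUSP1 and, chosen after its values were seen, DUSP10. DUSP1 had log2 values of 6.33 and 7.23 at 0 h and of 9.71 and 8.12 at 24 h. As with DDIT3 and MKNK2, replicate 1 at 24 h was the highest of the 4 arrays. DUSP1 differed by 2.14 on the log2 scale (adjusted p = 0.11 from limma, standard error 0.52). The difference was 1.34 without replicate 1 and 2.93 without replicate 2 at 24 h, fits in which the spread at 24 h cannot be estimated. The same 3 settings as for DDIT3, the replicate block among them, also called DUSP1. The trend and robust options gave an adjusted p of 0.042 and the filter at the negative control floor one of 0.048. Both DUSP1 arrays at 0 h lay below the negative control floor. It passed the filter only through its higher arrays at 24 h, so that call adds no support. DUSP10 lay below the negative control floor in every array, with 1 of its arrays at 0 h below the dim line. It had a log2 change of 1.27 (adjusted p = 0.13 from limma). The other 5 phosphatases ran from -0.18 to 0.51, the last value being that of DUSP8, which was below the dim line in every array.

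**Figure D4:**
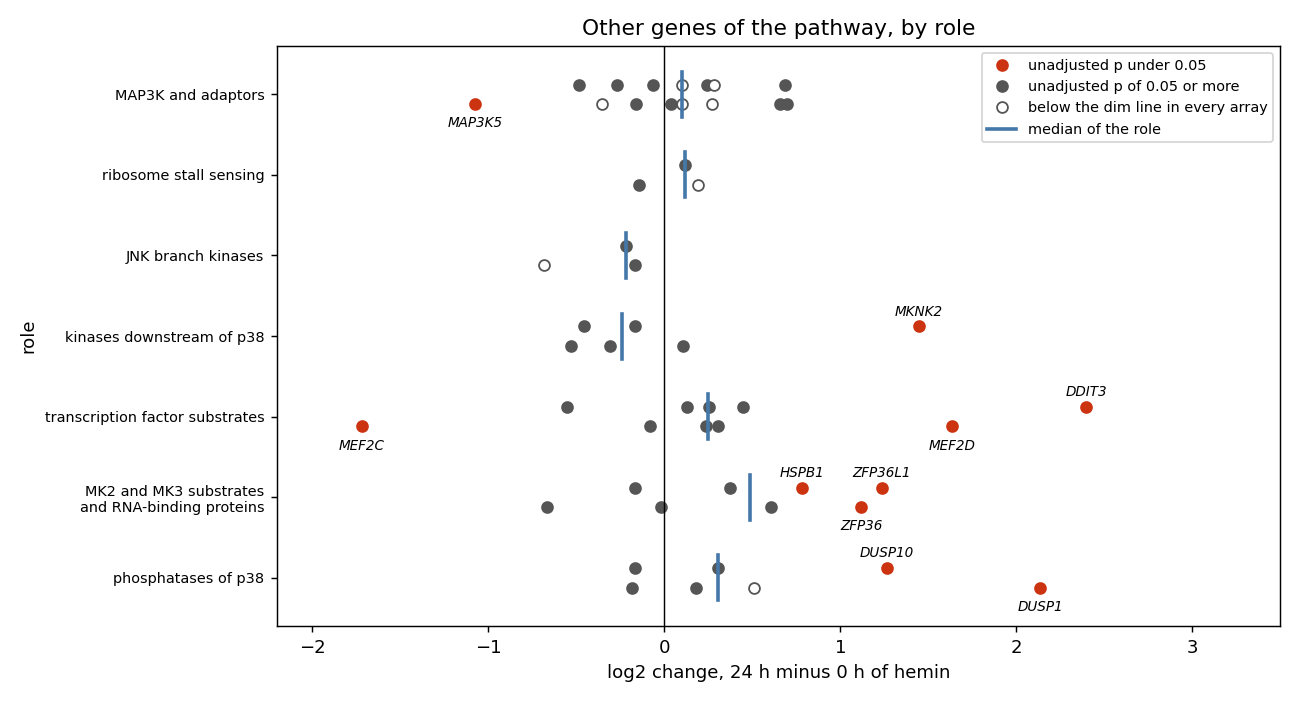
Log2 change at 24 h minus 0 h of hemin (horizontal axis) of 52 other genes of the pathway, by role; each point is a gene, red points have an unadjusted p under 0.05, open points are below the dim line in every array and blue bars are medians. DDIT3 (2.40) and DUSP1 (2.14) are highest and MEF2C (-1.72) lowest, and none was called after adjustment.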

How the data were processed

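RNA from K562 cells at 0 h and after 24 h of hemin was measured on 4 arrays, 2 per time point, grouped by the sample labels. The log2 values deposited by the authors were made with RMA in Affymetrix Expression Console (background correction, log2, quantile normalization) and tested in Partek; tool versions and build: not given in the sources used here. RMA draws dim values toward background, which can understate changes of dim genes. Of 24351 rows, 2903 control and 555 unmapped rows were left out and 20893 were tested, of which 17705 had 1 gene symbol from GEO's platform annotation, updated through RefSeq, and 3188 are unnamed here. A gene's probe set of highest mean represents it. The test was limma 3.58.1 in R 4.3.3 (24 h minus 0 h, two-sided, no covariate, Benjamini-Hochberg over all probe sets, threshold 0.05). Its code was tested on simulated data drawn under limma's own assumptions, which such data cannot test. Arrays have no read depth, and their number limits precision. The members and lists were chosen with earlier results of these data known. All members are named, with the called genes of each other role or, where none was called, its largest difference. The alternatives were another normalization, filters, thresholds, 1 probe set per gene, variance models, array weights, the replicate block, the methods' ANOVA (run per probe set) and leaving out each array.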

Additional observations from a re-analysis of the deposited data

How the results depend on the processing

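The 0 calls among the 10 genes became 1, GADD45A, with a filter at the negative control floor, with limma's trend and robust options, and in the methods' ANOVA at its unadjusted threshold, and 2 at an unadjusted p under 0.05; they remained 0 without each array in turn. The filters left fewer to test. At the dim line these were 7 of the 10 genes, 43 of the 52 and 11491 probe sets in all. At the negative control floor they were 5, 36 and 8105. Of the 52 other pathway genes, 0 were called, but 1 with quantile normalization again and 2 each with median centring and 1 probe set per gene. With the filters 2 of the 43 at the dim line and 5 of the 36 at the negative control floor were called. The 5 included DDIT3, DUSP1 and MEF2D, whose means at 0 h lay below that floor. The calls were 4 with the trend and robust options and 3 at an adjusted p under 0.10. They were 10 at an unadjusted p under 0.05 and 9 in the methods' ANOVA at its unadjusted threshold. Without single arrays they numbered 0 to 4, the latter without replicate 2 at 24 h. The 197 calls of the whole array became 495 with the negative control filter, 546 with the trend and robust options, 418 at an adjusted p under 0.10, 2695 at an unadjusted p under 0.05, and 0 and 1930 in the methods' ANOVA with and without adjustment; without single arrays they ran from 27 (without replicate 1 at 0 h) to 392 (without replicate 2 at 24 h). With the replicate number as a block, 0 of the 10 genes, 5 of the 52 (DDIT3, DUSP1, MEF2C, MEF2D and MKNK2) and 429 of all probe sets were called. The deviations of same-numbered arrays correlated at -0.003 across probe sets, so these values showed no shared replicate effect. Whether the numbers pair the arrays is not stated. Leaving out arrays moved the log2 change of MAP3K20 between -0.0466 and 0.27, MAP2K6 between -0.42 and 0.48, MAPK11 between -0.30 and 0.36, MAPK12 between -0.45 and 0.0220, MAPKAPK2 between -0.24 and 0.0517 and MAP3K4 between -0.51 and 0.19. With 1 array left at a time point, that array is assumed to vary like the other pair. No other setting changed the sign of any of the 10 genes. No gene of the set had 1 time point above a background line and the other below it, so no bound was computed. The cause of these shifts was not tested.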
